A study of Mus musculus with 4 samples.

Results

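miR-124 is a microRNA (miRNA) of neurons, and its hairpin gives 2 mature arms, miR-124-3p and miR-124-5p, which are the subject here. Their members were the sequences that the deposited table names mmu-miR-124-3p or mmu-miR-124-5p: 1413 sequences for the 3p arm and 60 for the 5p arm, 1473 of the 85704 sequences in all and 2 of its 1029 miRNA names. The sequences were measured by Ago-RP-Seq, in which a GW182-derived peptide pulls Argonaute (Ago) proteins out of a lysate and the bound small RNAs are sequenced, so that each read stands for an sRNA held by the RNA-induced silencing complex (RISC-bound sRNA, R-sRNA). Cortex and hippocampus of male C57BL/6J mice (BL6) without a transgene or treatment were taken at 2 months (2M) and at 18 months (18M), with 2 libraries at each age. The comparison asked how the sRNA content of the RISC differs between young and old brain. Neither the labels nor the methods tie each library to 1 mouse, so p-values measure the spread between these samples, which may be technical.

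A miRNA hairpin is cut by Drosha and Dicer into a short duplex, and 1 strand is kept by an Ago protein while the other is mostly discarded. The bases at positions 2 to 7 of the kept strand form the 6mer seed, which pairs with target mRNAs. A start that moves by a single base therefore gives the strand another seed and other targets. miR-124 is best known for holding neurons in their differentiated state by repressing transcripts of other cell types, such as that of the splicing factor Ptbp1. Its 3p arm is the guide strand, and the 5p arm is usually the discarded one.

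The table gives each sequence's reads scaled to an equal library total (CPM). The libraries held 10484940 and 11388999 reads at 2M and 10575081 and 9067007 at 18M, and 3 reads, the floor used here, were worth 0.263 to 0.331 CPM. Marker miRNAs of neurons, summed over miR-124-3p, miR-9-5p and miR-128-3p, ranged from 169186 to 195706 CPM, above all other marker sums. The 2 endothelial markers summed to 12243 and 11472 CPM at 2M and 5422 and 8990 at 18M, the 5 immune markers to 3142 and 3569 against 2771 and 2902, and the 2 smooth muscle markers to 6415 and 6559 against 5033 and 4915. These 3 sums were lower in both 18M libraries, as were both miR-124 arms and 189 of the 456 miRNAs tested (41.4%). Their part in the results was not tested. The neuron sum overlapped between the ages, but it includes miR-124-3p itself and so is no separate measure of neurons. Of its members, miR-124-3p was lower in both 18M libraries. By contrast, miR-9-5p and miR-128-3p each overlapped, with log2 changes from 2M to 18M of 0.07 and 0.37. The oligodendrocyte (6183 to 11603 CPM), red blood cell (1846 to 3566 CPM) and choroid plexus (2116 to 2809 CPM) sums overlapped between the ages, and none of the listed markers was absent. In whole tissue, fewer cells of a type and less miRNA per cell cannot be told apart.

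The mouse genome has 3 miR-124 genes, all on the plus strand. In the GENCODE annotation of GRCm38, Mir124a-1 lies at chr14:64590657-64590741 and overlaps an exon of the lincRNA Mir124a-1hg. Mir124a-2 lies at chr3:17795662-17795770 and overlaps an exon of the lincRNA Mir124-2hg. Mir124a-3 lies at chr2:180894040-180894107 and overlaps an exon of the gene Gm27032. Of the 1473 sequences, 1467 matched all 3 hairpins, so the reads do not say which gene they came from. Reads placed on Mir124a-1 alone numbered 12 and 8 at 2M and 4 and 2 at 18M. Mir124a-3 alone had 2 and 1 reads at 2M and 4 and 0 at 18M, and Mir124a-2 alone had 0 in every library. So few reads were particular to 1 hairpin that the level of each gene was not compared between the ages.

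miR-124-3p was the most abundant miRNA in the RISC of every library. It was at 104115 and 107034 CPM in the 2M libraries and at 98222 and 69405 CPM in the 18M libraries, which is 10.4%, 10.7%, 9.82% and 6.94% of all reads. Both 18M values lay below both 2M values, and the 18M replicates were further apart from each other (83813 ± 20376, SD, n = 2) than the 2M replicates (105574 ± 2064, SD, n = 2). The next miRNA was miR-26a-5p, or miR-128-3p in 2M replicate 2, and miR-124-3p exceeded it 1.81-fold and 1.71-fold at 2M and 1.35-fold and 1.19-fold at 18M. The log2 change from 2M to 18M on the log2(CPM + 1) scale was -0.35 with a standard error of 0.25 (limma, adjusted p = 0.472), and it passed neither the adjusted threshold nor the unadjusted one of 0.05 that the study uses. A position below both 2M libraries was common, as 189 of the 456 miRNAs tested (41.4%) shared it, and the median log2 change of all 456 was -0.22. Without 18M replicate 1 the change was -0.61 and passed the unadjusted threshold (adjusted p = 0.356), and without 18M replicate 2 it was -0.10 (adjusted p = 0.823), so the size rests on which 18M library is kept.

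**Figure D1:**
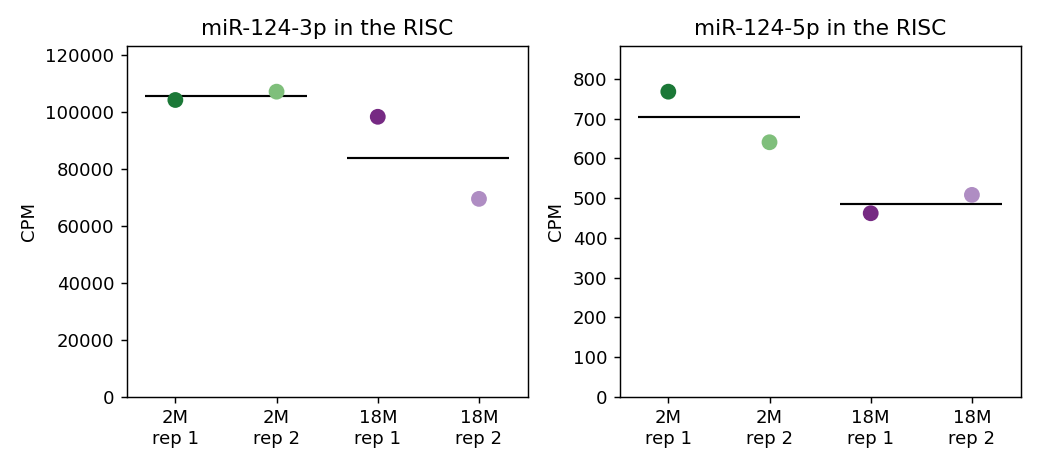
CPM of miR-124-3p (left) and miR-124-5p (right) in each library, with points for the libraries and lines for the mean of each age. Both 18M points lie below both 2M points on either side, and 18M replicate 2, at 69405 CPM, stands apart for the 3p arm only.

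miR-124-5p was held by the RISC at a far lower level than the 3p arm. It measured 768 and 641 CPM at 2M and 462 and 508 CPM at 18M, and ranked 130 and 140 among the miRNAs at 2M and 152 in 18M replicate 2, with 18M replicate 1 a place further down. The 2 ages did not overlap (704.5 ± 90.1 against 485.1 ± 32.7, SD, n = 2 each). The log2 change was -0.53 with a standard error of 0.21 (limma, adjusted p = 0.287), which passed the unadjusted threshold and failed the correction. At that threshold 74 of 456 miRNAs (16.2%) were called, 19 higher (4.17%) and 55 lower (12.1%) at 18M. After rescaling of the libraries by the median of ratios, which brought the median change of all miRNAs to -0.01, the calls were 39 higher and 25 lower, the change of miR-124-5p was -0.32 (adjusted p = 0.583) and that of miR-124-3p -0.14 (adjusted p = 0.854), neither of them called. On that scale miR-124-3p no longer separated the ages, since 18M replicate 1 became the highest of the 4 libraries. The call of miR-124-5p was also lost without 2M replicate 1 (-0.40, adjusted p = 0.55), without 18M replicate 1 (-0.46, adjusted p = 0.553) and without 18M replicate 2 (-0.60, adjusted p = 0.459).

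RISC-bound reads of the guide far outnumbered those of the other arm in every library. There were 136 and 167 reads of miR-124-3p for each read of miR-124-5p at 2M, and 213 and 136.6 at 18M. The highest and the next to lowest ratio both came from 18M libraries, and the ages overlapped. The log2 ratio differed by 0.18 between the ages (exact permutation test, two-sided, p = 0.667, where 2 libraries against 2 allow no p below 0.333). Among 85 hairpins with both arms in every library and at least 1000 CPM in all, miR-124 ranked 25 by the ratio of its major to its minor arm, at 159 over the mean of the libraries against a median of 59.3. Over the 4 libraries the root mean square difference of the centred log2 values of the arms was 0.265, below the median against the abundant miRNAs (0.340 for the 3p arm and 0.326 for the 5p arm).

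The neuronal miRNAs other than miR-124 gave the same kind of comparison for the cell type. All 18 on the list were tested and 0 passed an unadjusted p of 0.05 in limma, edgeR or DESeq2, beside 16.2% of all miRNAs in limma. A change above 0 was found for 4 and below 0 for 14, as for 144 and 312 of the 456 miRNAs. Their median log2 change was -0.29, beside -0.22 for all miRNAs. miR-9-5p, which acts in neural progenitors and neurons, was at 42830 and 25548 CPM at 2M and 27655 and 43876 at 18M. Its log2 change was 0.07 (adjusted p = 0.929). miR-128-3p, a miRNA of mature neurons, was at 37433 and 62462 CPM at 2M and 69829 and 55905 at 18M. The 2M replicates differed most, and the log2 change of 0.37 was within that spread (adjusted p = 0.517). miR-132-3p, whose transcription follows neuronal activity through CREB, was at 37398 and 32033 CPM at 2M and 33493 and 27849 at 18M, a log2 change of -0.18 (adjusted p = 0.680). Of the 18, 6 were lowest in 18M replicate 2, as miR-124-3p was, and 5 in 18M replicate 1, while miR-9-5p was highest in 18M replicate 2. Of all 456 miRNAs, 145 (31.8%) were lowest in 18M replicate 2.

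**Figure D2:**
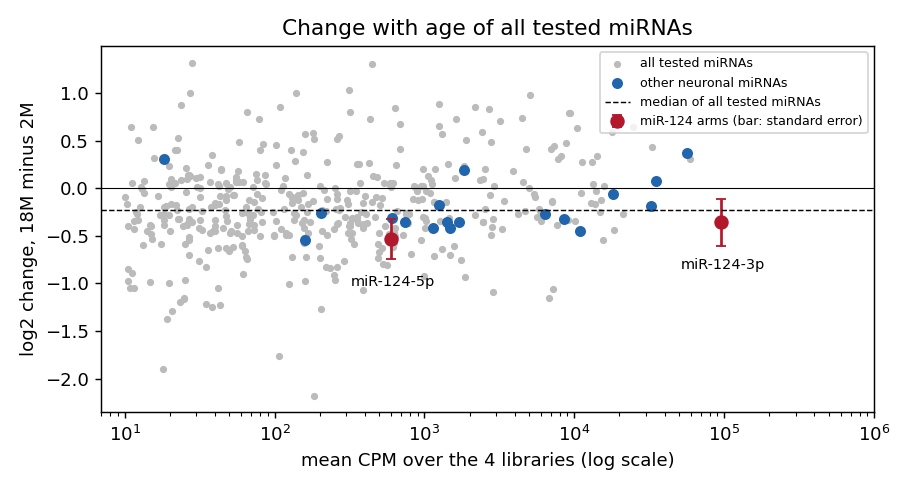
Log2 change from 2M to 18M of the 456 tested miRNAs against their mean CPM (log axis), with the 18 other neuronal miRNAs in blue, the 2 miR-124 arms in red with their standard errors, and the median of all as a dashed line at -0.22. Both arms lie below the median, and its line falls within 1 standard error of the 3p arm.

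Other miRNAs had a pattern over the 4 libraries much like that of either arm. Among 108 miRNAs with a mean of at least 1000 CPM, those nearest to miR-124-3p by root mean square difference of centred log2 values were miR-145a-5p (0.039), miR-127-3p (0.060) and miR-425-5p (0.076), against a median of 0.340. miR-127-3p was at 10979 and 11379 CPM at 2M and at 9916 and 7866 at 18M. For miR-124-5p the nearest of 109 were let-7d-5p (0.099), miR-143-3p (0.111) and miR-433-3p (0.117), against a median of 0.326. Of these, miR-145a-5p and miR-143-3p are the 2 smooth muscle markers summed above. The nearest miRNAs of the 3p arm were lowest in 18M replicate 2, while those of the 5p arm were lowest in 18M replicate 1. Each arm had the same lowest library, which is what a choice by likeness brings about. These are descriptions over 4 libraries that share their scaling.

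Where the strand starts decides its seed, and miR-124-3p was loaded with several starts. The seeds that carry the arm are shown with the start that gives each, counted from the main start, because the seed is what sets the targets and the toxicity score.
Main start, seed: AAGGCA
Start 1 base earlier, seed: UAAGGC
Start 1 base later, seed: AGGCAC
Main start of miR-124-5p, seed: GUGUUC
The main seed of miR-124-3p was on 84.7% and 85.7% of its reads at 2M and 84.5% and 85.5% at 18M. The seed 1 base earlier was on 13.4% (95% Wilson interval 13.3 to 13.4), 12.7%, 13.5% and 12.7%, and the seed 1 base later on 1.23%, 1.03%, 1.3% and 1.14%. Replicate 1 of either age had more of the early start than replicate 2, and the ages overlapped for each seed. The main seed share differed by -0.23 percentage points between the ages (exact permutation test, p = 0.667). In all, 230 different seeds were found on miR-124-3p and 7 on miR-124-5p, where the main seed was on 98.0%, 97.9%, 97.6% and 97.9% of the reads. Not every seed reflects a start on the hairpin. A 5' base that the hairpin does not encode was on 0.977%, 0.761%, 1.02% and 0.805% of miR-124-3p reads. Reads that match the hairpin from 1 base earlier, without such a base, were 12.9%, 12.4%, 13.1% and 12.4%, slightly fewer than those with the early seed.

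**Figure D3:**
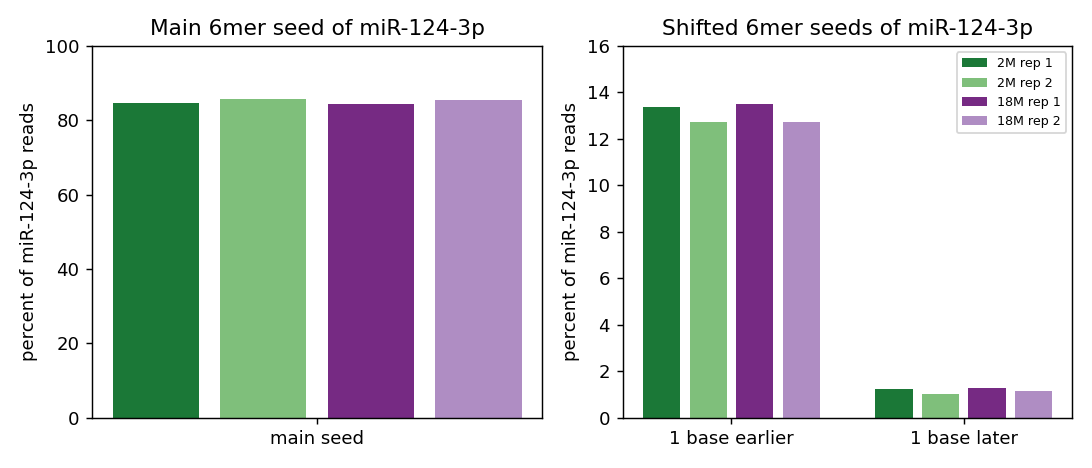
Percent of miR-124-3p reads with the main 6mer seed (left) and with the seed shifted by 1 base in either direction (right, on its own scale), with a bar for each library. The main seed stays between 84.5% and 85.7%, and the early seed between 12.7% and 13.5% over the 4 libraries.

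The starts differ in their 6mer seed viability, a score in the table. It is the mean viability, in percent of the control, of 3 mouse cell lines given a duplex with that seed. A low viability marks a toxic seed. The main seed of miR-124-3p scored 57.3, the early seed 31.2 and the late seed 30.4, and the main seed of miR-124-5p scored 54.8. The reads with the early seed amounted to 13913 and 13616 CPM at 2M and 13279 and 8847 CPM at 18M. They were 23.4%, 21.7%, 26.3% and 17.9% of all R-sRNA reads whose seed scored 31.2 or less, and this seed ranked 2, 2, 1 and 2 among the seeds at or below its score. The highest and the lowest of these shares were the 2 replicates of 18M. The read-weighted mean viability of miR-124-3p was 53.5, 53.7, 53.5 and 53.7 in the 4 libraries, and the ages overlapped.

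miR-124 carried nearly all RISC-bound copies of its seeds. Of the reads with the main seed, whatever their name, it held 98.6% and 98.6% at 2M and 98.6% and 98.3% at 18M. Of those with the early seed it held 97.4%, 97.4%, 97.2% and 96.6%. The main seed ranked 2, 2, 1 and 4 among all seeds in the 4 libraries. Compared with the 109 miRNAs of at least 1000 CPM, miR-124-3p ranked 97 by the share of its main seed (85.1% over the libraries against a median of 97.2%) and 13 by that of its second seed (13.1% against 1.5%).

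The 3p arm was short and had many forms. Its mean length was 20.6 and 20.5 nt at 2M and 20.5 and 20.7 nt at 18M, against 21.7 nt for all other miRNA reads in every library. By mean length it ranked 107 of the 109 abundant miRNAs, and by the share of reads of 19 nt, 19.2% over the libraries, it ranked 1. It gave 59.6% and 57.0% of all named 19-nt reads at 2M and 50.6% and 41.4% at 18M. Both 18M shares were lower, as the CPM of the arm was, and sequences of 19 nt are at the lower limit of the gel cut that the labels give. Its most abundant sequence held 29.3% of the arm, rank 103, while its number of sequences was the highest of the 109.

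5 sequences held 79.2% of miR-124-3p. The form of 21 nt from the main start, the most abundant one, was at 34605 and 29366 CPM at 2M and at 27894 and 19243 at 18M (log2 change -0.46, limma, adjusted p = 0.580). The 20-nt form was at 17146 and 29840 CPM at 2M and 24673 and 14044 at 18M, and the 19-nt form at 20610 and 19456 against 16961 and 11709. The 22-nt form was at 5719 and 3498 CPM at 2M and 4548 and 4883 at 18M. All of these match the hairpin to their last base, and none passed the test. The fifth, of 21 nt from the early start, was at 3495 and 4899 CPM at 2M and 4736 and 2515 at 18M, with a log2 change of -0.26 (adjusted p = 0.824). The most abundant form with the late start, of 20 nt, was at 571 and 467 CPM at 2M and 464 and 305 at 18M.

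The replicates differed in where the 3' end lay, most at base 20 at either age. From the main start the next largest gap was at base 21 at 2M and at base 22 at 18M. The log2 ratio of the 20-nt to the 21-nt form from the main start was -1.01 and 0.02 at 2M and -0.18 and -0.45 at 18M. The 2M replicates were at the extremes, with 18M between them. Reads of 20 nt were 22.4% and 32.4% of the arm at 2M and 30.3% and 25.2% at 18M, and reads of 21 nt 38.5%, 34.2%, 35.0% and 34.1%. The 2 starts ended at different places: of the reads from the main start, 43.2%, 35.9%, 37.9% and 37.8% matched the hairpin up to base 21, against 34.8%, 29.9%, 28.2% and 30.7% from the early start. An end at base 19 was on 25.1%, 22.2%, 21.8% and 21% of the main-start reads and on 31.9%, 27.1%, 28.2% and 28.1% of the early-start reads. An end at base 22 was on 9.55% and 6.30% of the main-start reads at 2M and on 7.71% and 12.4% at 18M. In each of the 4 libraries the early start thus went with an earlier end, and in either start 2M replicate 1 had the fewest ends at base 20. At an equal end an early-start read is 1 nt longer than a main-start read. The 19-nt lower limit of the gel cut and the 18-nt limit for a name thus bear on the 2 starts unequally. Their part in the difference between the starts was not tested.

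**Figure D4:**
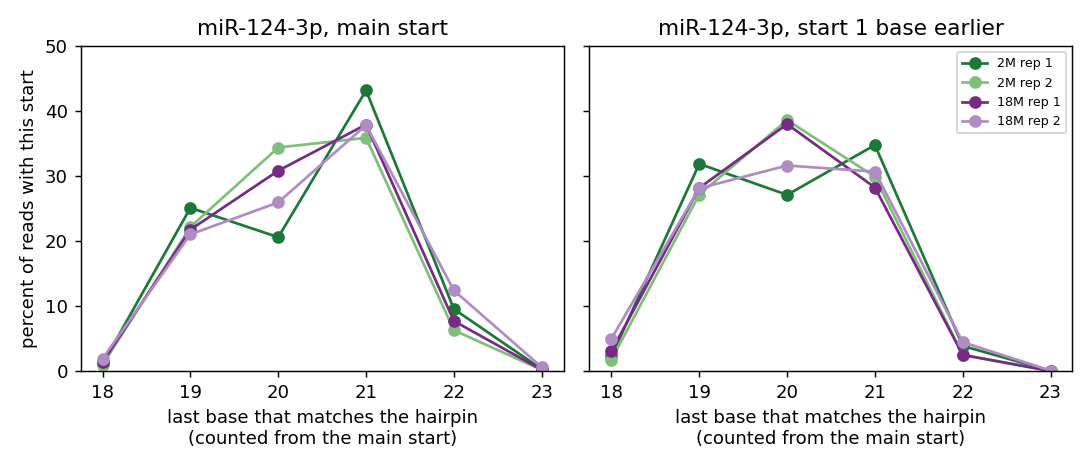
Percent of miR-124-3p reads by the last base that matches the hairpin, counted from the main start, for reads from the main start (left) and from 1 base earlier (right), with a line for each library. In 2M replicate 1 ends at base 20 dip to 20.6% on the left and 27.1% on the right, while the other 3 libraries lie between 25.9% and 38.6%.

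At the 2 shortest lengths the 18M shares lay on opposite sides of the 2M shares. Reads of 19 nt were 20.7% and 19.0% of miR-124-3p at 2M and 18.4% and 18.1% at 18M, both lower at 18M. Reads of 18 nt, the shortest length that was given a miRNA name, were 0.480% and 0.386% of miR-124-3p at 2M and 0.682% and 1.03% at 18M. The ages overlapped for neither length (exact permutation test, p = 0.333 each, the smallest it can give). Of the 109 abundant miRNAs, 43 (39.4%) likewise had a higher share of 18-nt reads in both 18M libraries. The same count was not made for 19-nt reads, so how common their lower share is was not tested. The share of 18-nt reads among all other miRNA reads was 0.227% and 0.216% at 2M and 0.241% and 0.252% at 18M. The 18-nt form from the main start was at 281 and 224 CPM at 2M and at 371 and 585 at 18M, a log2 change of 0.89 with a standard error of 0.32 that passed the unadjusted threshold (limma, adjusted p = 0.408). The 19-nt form from the early start, which ends at the same base, was at 145 and 102 CPM against 187 and 246 (log2 change 0.81, adjusted p = 0.446), and also passed it. Both lie below the lower size of the gel cut or at it, and the part of size selection in these values was not tested.

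Sequence by sequence, few forms of miR-124 differed between the ages. Of its 310 sequences that averaged 1 CPM or more (297 of the 3p and 13 of the 5p arm, with 99.7% and 97.7% of their arm's CPM), 10 (3.23%) passed an unadjusted p of 0.05, against 1443 of 14287 sequences in all (10.1%). For miR-124-3p 8 were higher and 1 lower at 18M, where 5.87% of all sequences were called higher and 4.23% lower. This split depended on the scaling and on 1 library. Of both arms' calls, 16 were higher and 0 lower after rescaling by the median of ratios. Without 18M replicate 1 most calls were lower instead. The share of all sequences called was counted for the main limma fit only, so how far it moves likewise was not tested. The only call of miR-124-5p was its 23-nt form, at 36.5 and 36.5 CPM at 2M and 20.9 and 23.2 at 18M (log2 change -0.71, adjusted p = 0.477). None of the 310 passed after adjustment in limma, edgeR or DESeq2 (10, 9 and 8 unadjusted), where 6 of all sequences did in limma. The median log2 change was -0.08 for miR-124 sequences and -0.01 for all sequences. The other 1163 sequences had a mean under 1 CPM and were not tested.

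Bases that the hairpin does not encode are added to miRNA 3' ends by terminal transferases, and such tails were found on both arms. An untemplated 3' tail was on 10.5% and 9.68% of miR-124-3p reads at 2M and on 9.64% and 13.9% at 18M. 18M replicate 2 stood above the other 3 libraries, which lay within 1 percentage point of each other. Tails of U only were on 6.06%, 6.56%, 5.45% and 8.58% and tails of A only on 2.73%, 1.79%, 2.41% and 2.70%. An added base that equals the next base of the hairpin cannot be told from a templated one.

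U tails were more frequent the further the hairpin-matched part reached. From the main start, a U tail was on 0.811%, 0.639%, 1.05% and 1.02% of the reads that matched to base 19, on 3.54%, 4.52%, 2.41% and 6.17% of those to base 20, and on 7.67%, 9.36%, 9.13% and 11.5% of those to base 21. Of those to base 22 the share was 17.2% and 21.8% at 2M and 10.5% and 16.5% at 18M. The order from base 19 to base 22 held in all 4 libraries from the main start, whereas from the early start base 21 exceeded base 22 in 18M replicate 1 (10.8% against 10.1%). At base 22 both 18M libraries were below both 2M libraries for either start, and at base 19 both were above (exact permutation test, p = 0.333 each, the smallest it can give). At bases 20 and 21 the ages overlapped for either start. Both starts were read in the same libraries, and how many other miRNAs separate the ages in this way was not counted. The 2 starts carried U tails at like overall rates, 6.10%, 6.63%, 5.49% and 8.60% against 5.50%, 5.97%, 5.12% and 8.21%.

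**Figure D5:**
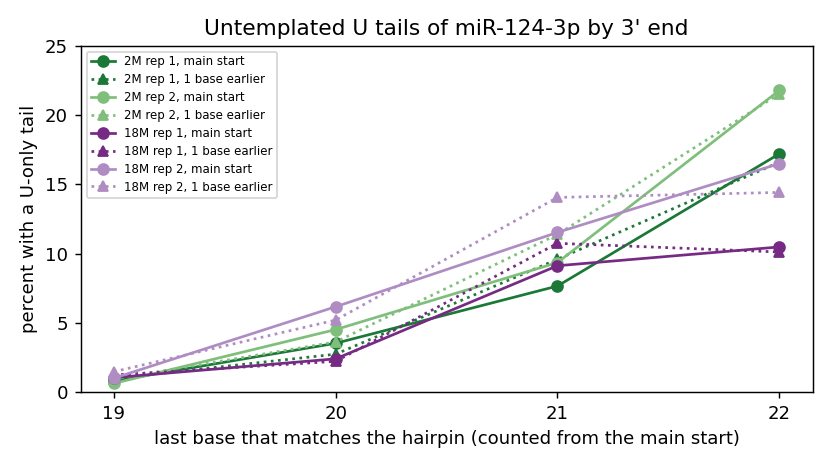
Percent of miR-124-3p reads with a tail of U only, by the last base that matches the hairpin (counted from the main start), for the main start (circles, solid lines) and the start 1 base earlier (triangles, dotted lines) in each library. The share climbs from about 1% at base 19 to between 10.1% and 21.8% at base 22.

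miR-124-5p was tailed less often than the 3p arm. An untemplated tail was on 3.59% and 3.36% of its reads at 2M and on 4.44% and 5.01% at 18M. The ages did not overlap and differed by 1.26 percentage points (exact permutation test, p = 0.333, the smallest it can give). With only sequences that averaged 1 CPM or more the difference was 0.82. How many other miRNAs separate the ages in their tailed share was not counted. Tails of A only made up more of the tailed share than tails of U only, with 2.01%, 1.96%, 2.29% and 2.91% against 0.919%, 0.630%, 0.880% and 1.06%. Its main form was 21 nt long. All reads of that length together were 57.5%, 62.7%, 57.4% and 60.2% of the arm, and 5 sequences held 94.0% of it. The main form alone was at 427 and 391 CPM at 2M and 254 and 294 at 18M (log2 change -0.58, limma, adjusted p = 0.521). The 22-nt form was at 190 and 101 against 77.2 and 93.4. The 20-nt form was at 64.4 and 73.7 CPM at 2M and 72.4 and 56.4 at 18M, so the ages overlapped for this form and did not for the 21-nt, 22-nt and 23-nt forms. The fifth, of 22 nt with an added A, was at 7.44 and 5.18 CPM at 2M and 5.49 and 6.51 at 18M. These forms make up the total of the arm, which was itself lower in both 18M libraries. How many of all tested sequences do not overlap between the ages was not counted.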

How the data were processed

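The authors de-multiplexed and trimmed the reads (Trim Galore, per the labels), removed rare reads, matched the rest to mouse small RNAs by BLAST and deposited CPM per sequence, with a 6mer seed and a viability score that they joined by seed. Per the labels, the RNA was cut from a gel with a lower size limit of 19 nt. A miRNA name went only to sequences of at least 18 nt with an exact run of 18 nt on the hairpin. miRNAs were summed by name, and whole reads were recovered from 100% of the nonzero CPM values, each within 0.00569 of a whole read.

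Two-sided tests between the ages used limma with a trend on log2(CPM + 1), with no other covariate. Tested were miRNAs that averaged 10 CPM or more and sequences that averaged 1 CPM or more. Adjustment was by Benjamini-Hochberg over all features tested. The study's methods use an unadjusted threshold of 0.05 without saying which test gave it. edgeR and DESeq2 on the recovered reads, other pseudocounts, filters and scalings, and leaving out each library were alternatives, and the fits were tested on simulated data. Intervals and floors cover counting error only. The members and lists were chosen with earlier results of these data known. The named genes are the members, the 5 most abundant sequences of each arm, the most abundant sequence of each main seed, the 3 most alike miRNAs of each arm, and miR-9-5p, miR-128-3p and miR-132-3p of the neuronal list. Sequences described for their length or their call were chosen after their values were seen. Neither miR-124 arm had an entry in the miRNA sequence table. Models were fitted with DESeq2 1.42.0, edgeR 4.0.16 and limma 3.58.1 under R 4.3.3. Tables and plots were made with scipy 1.17.1, pandas 2.3.3, numpy 2.4.6 and matplotlib 3.10.9 under Python 3.11.15.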

Additional observations from a re-analysis of the deposited data

Results flagged for a closer look

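Reads on the miR-124 hairpins without a miRNA name were outside the comparisons and above the 3-read floor in every library. The 1094 such sequences came to 1994 and 2007 CPM at 2M and 1980 and 1652 CPM at 18M, a mean of 1908 over the 4 libraries and 1.92%, 1.87%, 2.02% and 2.38% of miR-124-3p. Of them 396 sequences differed from the hairpin by 1 internal base, with 1456 and 1497 CPM at 2M and 1401 and 1138 at 18M. The most abundant of these changes was C10U, counted from 1 at the 5′ end of the main miR-124-3p start, at 145 and 160 CPM at 2M and 130 and 236 at 18M, a mean of 167.8. C10U reads were 0.139%, 0.15%, 0.133% and 0.339% of miR-124-3p, so 18M replicate 2, in which the named arm was lowest, held the most. A3G, at 113, 112, 109 and 66.3 CPM, and A16G, at 105, 103, 107 and 73.0 CPM, were both lowest in 18M replicate 2. A sequencing error, a change in the RNA and a variant of the genome cannot be told apart in these reads.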

How the results depend on the processing

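With 2 libraries an age, 1 library can decide a value. The change of miR-124-3p stayed below 0 in all 13 alternatives (adjusted p 0.356 to 0.913) and ran from -0.61 to -0.10 with each library left out, passing an unadjusted 0.05 only without 18M replicate 1. That of miR-124-5p stayed below 0 in 13 alternatives (adjusted p 0.278 to 0.669) and kept its call in 5. It was -0.53 with limma without the trend (adjusted p = 0.329), -0.32 rescaled by the median of ratios, -0.31 with edgeR, -0.33 with DESeq2, and -0.66 to -0.40 with each library left out. With the replicate number as a block it was -0.53 (adjusted p = 0.288) and lost its call. The labels do not say that equal numbers mark a shared origin, and deviations of same-numbered libraries correlated at 0.180 over 456 miRNAs. All miRNAs called numbered 125 without a filter, 43 with the stricter filter, 62 with edgeR (39 higher and 23 lower), 69 with DESeq2 (43 and 26). After adjustment they numbered 1 with limma, 0 with edgeR, 19 with DESeq2 and 4 without 2M replicate 1. miR-124 sequences called numbered 36 without a filter, 5 with the stricter filter, 16 after rescaling (16 higher and 0 lower) and 0 after adjustment. With each library left out they numbered 13 to 20. The differences between the ages turned sign when a library was left out for the log2 arm ratio (-0.14 to 0.50), the main seed share of miR-124-3p (-0.78 to 0.31 percentage points), its mean length (-0.014 to 0.13 nt) and its tailed share (-0.44 to 3.81 percentage points), and the cause was not tested.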
